A study of Mus musculus with 4 samples.

Results

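The 8 genes described here carry out antigen presentation by MHC class II: H2-Aa, H2-Ab1, H2-Eb1, Cd74, H2-DMa, H2-DMb1, Ciita and Ctss. They were taken by symbol from the 28692 genes of the deposited matrices and followed in every library and in 14 cell classes gated on marker genes, none of which is a class II gene. The study implanted B16-F10, a mouse melanoma line, into C57BL/6 mice, gave Pmel-1 T cells on day 3 and sorted cells from the tumours on day 14. Pmel-1 T cells are CD8+ T cells with a transgenic receptor for the melanocyte antigen gp100. The IRF4 arm received Pmel-1 cells transduced with IRF4-GFP, and the control arm Pmel-1 cells transduced with GFP alone. Each arm gave 1 library of transferred Pmel-1 cells and 1 of endogenous CD45+ cells, so 4 libraries with no replicate were compared. The labels give neither the number nor the age or sex of the animals behind a library.

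The transferred libraries kept 572 of 715 barcodes in the IRF4 arm and 2513 of 3640 in the control arm, and the endogenous libraries 6371 of 6981 and 5676 of 6375. Median depth was 16370 and 19963 unique molecular identifiers (UMIs) per transferred cell and 8437 and 10521 per endogenous cell in the IRF4 and control arms. A level is given in CPM, the UMIs of a gene per 1000000 UMIs of all genes in the pooled cells of a class. In such a pooled value, fewer cells with the RNA and less RNA per cell cannot be told apart, so shares of cells and per-cell medians stand beside it where they matter. All intervals are exact 95% intervals that cover counting error only, and no difference between arms has a test or a p-value, since 1 library per group leaves no replicate spread. A gene that reached 10 CPM in either library is called higher or lower when its CPM, with 1 added, differed by 1.5-fold or more. Of the 15132 kept cells, 11234 fell into a class, 2463 into none, and 1435 carried the markers of more than 1 lineage and were set aside. T cell and phagocyte markers together made up 1195 of those 1435 cells. The control libraries also differed from the IRF4 libraries in haemoglobin RNA: the 5 erythroid genes summed to 0.330 CPM in transferred CD8 T cells with IRF4, against 90.1 CPM with GFP alone, and to 3.67 CPM in B cells of the IRF4 arm, against 26049 CPM in B cells of the control arm. In endogenous CD8 T cells they summed to 0.448 and 1209 CPM in the IRF4 and control arms, but in NK cells the order was the other way, at 248 and 112 CPM. The part of that difference in the results below was not tested. Irf4 itself stood at 28.5 CPM in transferred IRF4 CD8 T cells and 24.7 CPM in transferred control CD8 T cells, and at 10.8 and 9.07 CPM in endogenous CD8 T cells of the IRF4 and control arms. Tags from the 3' end of endogenous Irf4 need not include a vector transcript, so these values do not check which library received the IRF4 vector.

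MHC class II molecules present peptides from the endosomes of antigen-presenting cells to CD4 T cells. H2-Aa and H2-Ab1 encode the alpha and beta chains of I-A, and H2-Eb1 the beta chain of I-E, whose alpha chain is not made in C57BL/6 mice. Cd74 encodes the invariant chain that fills the groove of new class II dimers, Ctss encodes cathepsin S, which trims that chain, and H2-DMa and H2-DMb1 encode the DM dimer that exchanges its last fragment for peptide. Ciita encodes the transactivator that is recruited to class II promoters and sets their activity, high in dendritic and B cells and inducible by interferon-gamma in macrophages.

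The class II members of the list lie close together on mouse chromosome 17 (GRCm38, GENCODE vM21 annotation, all protein-coding): H2-DMa at chr17:34119541-34139101, plus strand, H2-DMb1 at chr17:34153072-34160230, plus strand, H2-Ab1 at chr17:34257689-34269419, plus strand, H2-Aa at chr17:34282744-34287823, minus strand, and H2-Eb1 at chr17:34305867-34316674, plus strand. Ciita lies at chr16:10480059-10528418, plus strand, and Ctss at chr3:95526786-95556403, plus strand. RefSeq promoters (GRCm38.p6, 250 bases before to 50 after the annotated start) were matched for 5 of the 8 members, and H2-Ab1, Cd74 and Ciita had no entry. The promoters of H2-Aa, chr17:34287774-34288073 (minus strand), H2-DMb1, chr17:34152941-34153240 (plus strand), and H2-Eb1, chr17:34305617-34305916 (plus strand), are printed 5′ to 3′ on the gene's own strand because promoters of this family are known for shared X and Y boxes, through which Ciita is recruited. The first run of capitals in each is GNAACT, the start of the X box, and the second is GATTGG, the Y box that NF-Y recognises.
H2-Aa: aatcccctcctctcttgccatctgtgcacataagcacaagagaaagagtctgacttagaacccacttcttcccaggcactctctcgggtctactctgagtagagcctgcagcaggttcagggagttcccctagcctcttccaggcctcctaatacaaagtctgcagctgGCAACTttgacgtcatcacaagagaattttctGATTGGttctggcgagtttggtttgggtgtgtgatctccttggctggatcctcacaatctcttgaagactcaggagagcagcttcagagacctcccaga
H2-DMb1: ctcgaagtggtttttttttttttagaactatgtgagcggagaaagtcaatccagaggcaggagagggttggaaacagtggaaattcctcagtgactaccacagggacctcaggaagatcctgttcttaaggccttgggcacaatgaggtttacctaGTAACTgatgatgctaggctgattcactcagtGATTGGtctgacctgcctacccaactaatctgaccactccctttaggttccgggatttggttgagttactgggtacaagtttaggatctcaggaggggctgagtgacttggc
H2-Eb1: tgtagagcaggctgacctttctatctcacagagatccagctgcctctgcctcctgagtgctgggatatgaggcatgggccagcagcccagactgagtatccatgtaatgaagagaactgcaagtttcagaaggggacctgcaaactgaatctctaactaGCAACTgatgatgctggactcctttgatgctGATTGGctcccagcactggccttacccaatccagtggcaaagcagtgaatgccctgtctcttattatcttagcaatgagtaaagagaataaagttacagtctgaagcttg
The X box motif begins at -81, -94 and -91 from the annotated start in H2-Aa, H2-DMb1 and H2-Eb1, and the Y box motif follows 32, 32 and 31 bases further on. H2-Eb2, a further class II beta chain gene outside the 8, has the same pair 31 bases apart, while H2-DMb2, H2-Oa and H2-Ob, also outside the 8, have GATTGG but no such pair. Among all 32851 RefSeq promoters of this length, GNAACT was found on either strand in 42.8%, GATTGG in 16.1%, and the pair in this order on 1 strand, 20 to 45 bases apart, in 0.402%. Neither motif was found in the Ctss window. Of the H2-DMa windows, 1 of 2 held both motifs, but not as such a pair. The motifs were chosen after these promoters were read, and a match is a run of letters and no evidence of binding.

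In the endogenous libraries, levels of the 8 genes together were highest in conventional dendritic cells, B cells, macrophages and mature dendritic cells, with the conventional dendritic cells at the top. Type 1 conventional dendritic cells (cDC1, cross-presenting cells marked by Xcr1 and Clec9a) held 54111 CPM of the 8 genes in the IRF4 arm (53738 to 54486) and 55264 CPM in the control arm (54997 to 55531). Type 2 conventional dendritic cells (cDC2, marked here by Cd209a, Clec10a and Mgl2) held 45991 CPM in the IRF4 arm and 55977 CPM in the control arm, so the order of these 2 classes differed between arms. B cells followed with 26992 CPM in the IRF4 arm and 31415 CPM in the control arm. Macrophages, gated on the complement genes C1qa, C1qb and C1qc, held 22955 CPM in the IRF4 arm and 19553 CPM in the control arm, and mature dendritic cells, marked by Ccr7 and Fscn1, 22852 CPM in the IRF4 arm and 22596 CPM in the control arm. These 2 classes were close to each other in both arms. Plasmacytoid dendritic cells (pDC), which are specialised in type I interferon, held 11296 CPM in the IRF4 arm and 14213 CPM in the control arm. Nonclassical monocytes, the patrolling monocytes marked here by Ace, Adgre4 and Treml4, held 11019.8 CPM in the IRF4 arm and 11292 CPM in the control arm, and classical monocytes 9267 CPM in the IRF4 arm and 13274 CPM in the control arm. Of these 3, pDC stood first in both arms, and the order of the monocyte classes differed between arms.

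Lymphocytes other than B cells were far lower. Regulatory T cells (Treg) held 2946 CPM in the IRF4 arm and 6846 CPM in the control arm, other CD4 T cells 444 and 3583 CPM, CD8 T cells 395 and 1145 CPM and NK cells 473 and 448 CPM in the IRF4 and control arms. Mast cells or basophils, with 30 and 35 cells, held 286 and 366 CPM. Neutrophils, with 36 and 69 cells, held 8585 and 687 CPM, and in the IRF4 arm 1 cell held at least 50% of the Cd74 UMIs, while the median neutrophil there had 384 CPM. Neither class was compared between arms, since each had under 50 cells in at least 1 arm.

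**Figure D1:**
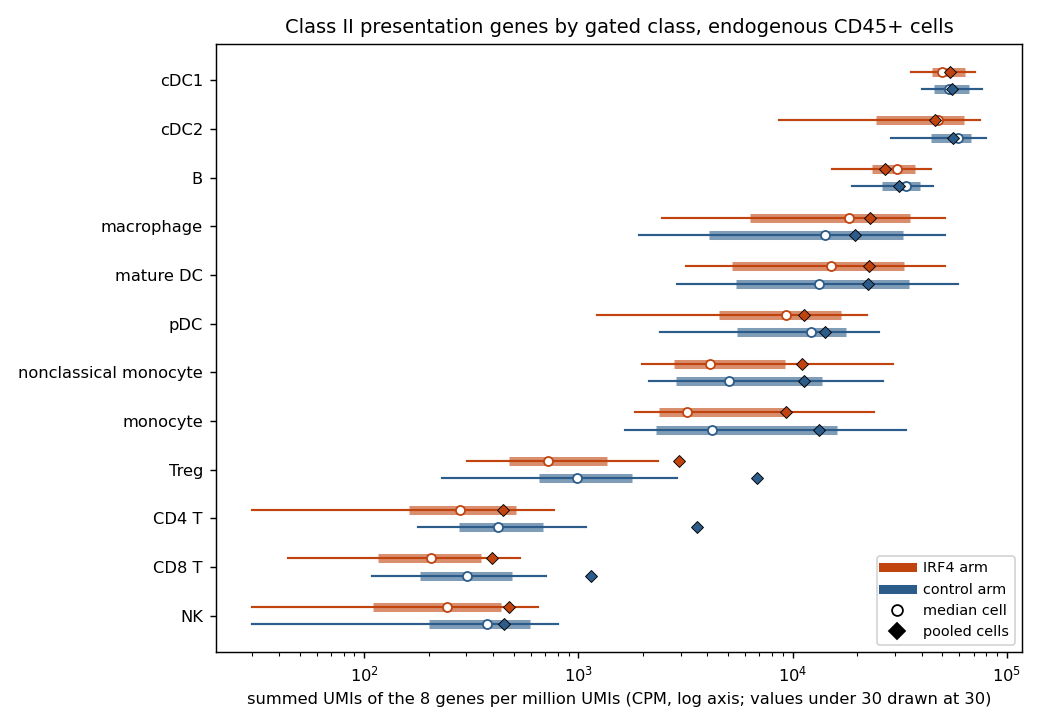
Summed CPM of the 8 genes per cell in 12 gated classes of the endogenous libraries (log axis), with the IRF4 arm above the control arm in each class. Thin lines run from the 10th to the 90th percentile of cells, thick lines from the 25th to the 75th, open circles mark the median cell and diamonds the pooled level. Cells of cDC1 and B classes lie in a narrow range, and phagocytes and mature dendritic cells spread over more than 10-fold. The pooled level lies above the 90th percentile of cells in CD4 T and CD8 T cells of the control arm and in Treg of both arms.

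The classes also differed in how evenly their cells carried the RNA. In cDC1, the 90th percentile of cells was 1.99 times the 10th in the IRF4 arm and 1.89 times in the control arm, and in B cells 2.90 and 2.38 times. In macrophages the same measure was 20.9 and 26.9, in monocytes 13 and 20.5, and in mature dendritic cells 16.1 and 20.6. Most monocytes were therefore far below the pooled value of their class: the median monocyte had 3216 CPM in the IRF4 arm and 4187 CPM in the control arm, and the 75th percentile 9282 and 16095 CPM. The share of cells with at least 10000 CPM, 1% of their RNA, was 98.1% and 100% in cDC1, 87.7% and 96.8% in cDC2, 95.7% and 97.9% in B cells, 65.5% and 57.8% in macrophages, and 23.3% and 33.2% in monocytes of the IRF4 and control arms. It was 0.335% and 1.02% in CD8 T cells and 0.191% and 0.183% in NK cells. The cDC2 gate was the loosest of the dendritic gates, with 72 of 122 cells in the IRF4 arm and 75 of 187 in the control arm at its limit of 4 markers, and its 10th percentile was 8648 CPM in the IRF4 arm and 28659.8 CPM in the control arm.

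**Figure D2:**
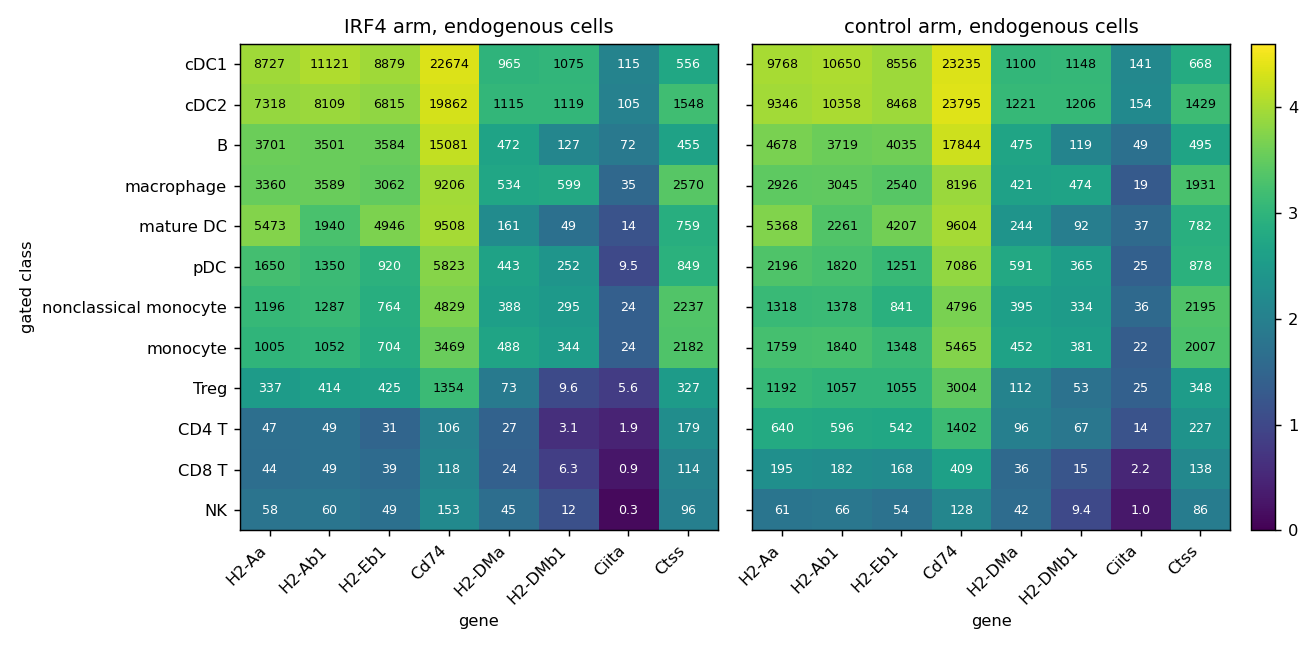
Pooled CPM of each of the 8 genes (columns) in 12 gated classes (rows) of the endogenous IRF4 library (left) and the endogenous control library (right), with colour on the log10(CPM + 1) scale. The chains, Cd74 and Ciita peak in cDC1 and cDC2, Ctss peaks in macrophages and both monocyte classes, and H2-DMb1 is low in B cells and mature dendritic cells relative to the chains.

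Each member had its own distribution over these classes. A UMI stands for 1 molecule whatever its length, but genes can differ in how well their 3' ends are captured, so ratios between genes are compared across classes and not read as molar ratios. Cd74, the invariant chain, was the most abundant member in every dendritic, B and phagocyte class, at 22674 CPM in the IRF4 arm and 23235 CPM in the control arm in cDC1 and at 15081 and 17844 CPM in B cells. It outnumbered the 3 chains together in B cells, with 1.4 Cd74 UMIs per chain UMI in the IRF4 arm, against 1.44 in the control arm, in pDC, with 1.49 and 1.35, in nonclassical monocytes, with 1.49 and 1.36, and in monocytes, with 1.26 and 1.10. In cDC1 the ratio was 0.789 and 0.802, and in mature dendritic cells 0.769 and 0.811.

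The 3 chain genes ran almost in parallel except in mature dendritic cells. In cDC1, H2-Aa stood at 8727 CPM in the IRF4 arm and 9768 CPM in the control arm. H2-Ab1 stood at 11121 and 10649.5 CPM there, and H2-Eb1 at 8879 and 8556 CPM. In mature dendritic cells H2-Aa stood at 5473 and 5368 CPM and H2-Eb1 at 4946 and 4207 CPM, but H2-Ab1 at only 1939.96 and 2261 CPM. The UMIs of H2-Aa per UMI of H2-Ab1 were 2.82 and 2.37 in mature dendritic cells of the IRF4 and control arms, 0.785 and 0.917 in cDC1, and 1.06 and 1.26 in B cells. H2-Eb1 per H2-Ab1 was lowest in nonclassical monocytes, monocytes and pDC of both arms among the dendritic, B and phagocyte classes, from 0.594 in nonclassical monocytes of the IRF4 arm to 0.733 in monocytes of the control arm.

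The DM genes were high in conventional dendritic cells and low in mature ones. H2-DMa stood at 965 CPM in the IRF4 arm and 1099.8 CPM in the control arm in cDC1 and at 161 and 244 CPM in mature dendritic cells, and H2-DMb1 at 1075 and 1148 CPM in cDC1 and 49.4 and 92.0 CPM in mature dendritic cells. Both DM genes together had 0.0170 and 0.0284 UMIs per chain UMI in mature dendritic cells, against 0.0710 and 0.0776 in cDC1 and 0.113 and 0.105 in macrophages. In B cells H2-DMa stood at 472 and 475 CPM and H2-DMb1 at 127 and 119 CPM. The neighbouring gene H2-DMb2, which encodes a second DM beta chain, stood at 519 and 573 CPM in B cells, 236 and 365 CPM in cDC2, 120.4 and 120.03 CPM in cDC1 and 17.8 and 22.1 CPM in macrophages. The order of the beta chain genes was thus turned round between B cells and macrophages in both arms. H2-DMb1 and H2-DMb2 are paralogs, and 0.851% of the 31-base words in the last 500 bases of H2-DMb1 transcripts also occur in those of H2-DMb2. The DO genes H2-Oa and H2-Ob, whose product restrains DM, were highest in B cells. H2-Oa stood there at 251 and 262 CPM and H2-Ob at 378 and 475 CPM, against 3.69 and 3.02 CPM of H2-Ob in macrophages. H2-Eb2 was found mainly in mature dendritic cells, at 101 and 65.7 CPM, and in B cells, at 53.2 and 47.7 CPM.

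Ctss was highest in the phagocytes, unlike the class II chains. Cathepsin S RNA stood at 2570.03 and 1931 CPM in macrophages, 2237 and 2195 CPM in nonclassical monocytes and 2182 and 2007 CPM in monocytes of the IRF4 and control arms, against 1548 and 1429 CPM in cDC2, 556 and 668 CPM in cDC1 and 455 and 495 CPM in B cells. It was also present in T cells, with 114 and 138 CPM in endogenous CD8 T cells. Per chain UMI there were 0.790 and 0.406 Ctss UMIs in monocytes and 0.0193 and 0.0231 in cDC1.

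**Figure D3:**
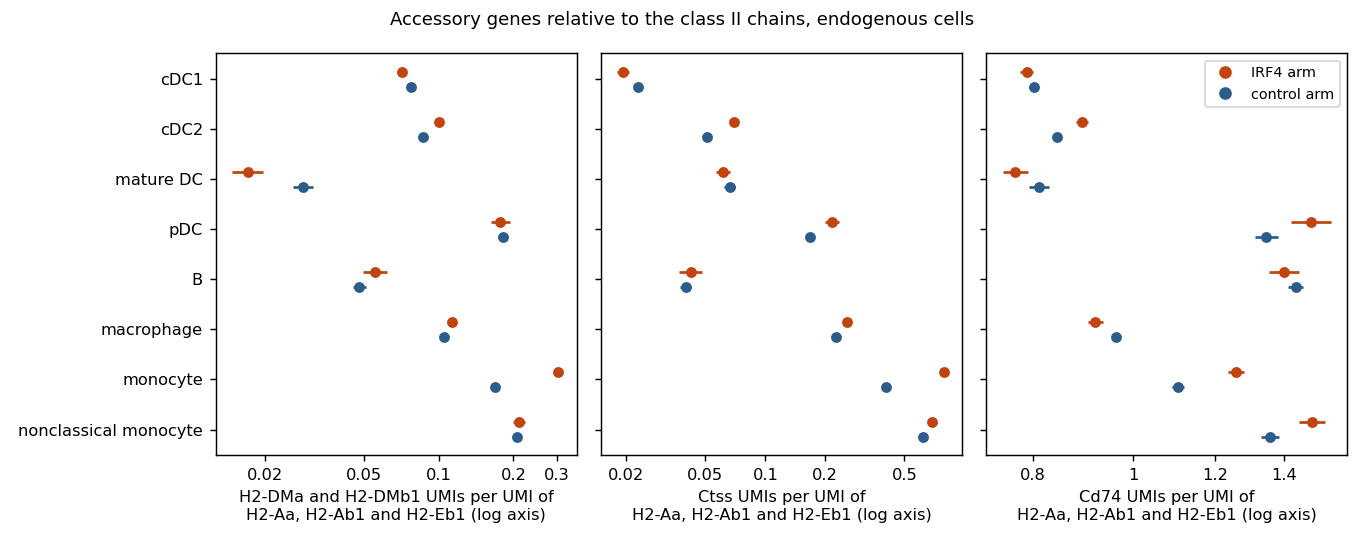
UMIs of the DM genes (left), Ctss (middle) and Cd74 (right) per UMI of H2-Aa, H2-Ab1 and H2-Eb1 together in 8 classes of the endogenous libraries (log axes), with the IRF4 arm above the control arm and exact 95% intervals for counting error. Mature dendritic cells have the fewest DM UMIs per chain UMI, and monocytes of both kinds have the most Ctss per chain UMI.

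Ciita was scarce everywhere, and its order differed from that of the chains. It stood at 105 CPM in the IRF4 arm and 154 CPM in the control arm in cDC2, at 115 and 141 CPM in cDC1 and at 71.6 and 49.3 CPM in B cells. Macrophages held 35.3 and 19.4 CPM and monocytes 24.0 and 22.1 CPM, while mature dendritic cells, with the high H2-Aa levels given above, held 14.3 and 37.3 CPM. Monocytes and macrophages with the interferon list (Cxcl9, Cxcl10, Gbp2 and others) held 56.6 and 43.8 CPM of Ciita beside 1818 and 2878 CPM of H2-Aa, and those with the hypoxic list (Inhba, Nos2, Arg1 and others) 6.10 and 7.19 CPM of Ciita beside 2848 and 2306 CPM of H2-Aa. Among the X box factors, Rfxap stood at 44.4 and 49.6 CPM in cDC1 and 41.9 and 40.7 CPM in monocytes, whereas Rfx5 stood at 20.2 and 20.4 CPM in B cells, 10.1 and 10.1 CPM in cDC2 and 4.70 and 3.89 CPM in macrophages. March1, the ubiquitin ligase that removes class II from the surface, had no UMI in mature dendritic cells of the IRF4 arm (upper limit 4.05 CPM) and 6.92 CPM in those of the control arm, against 166 and 185 CPM in cDC1 and 179.8 and 259 CPM in B cells. Cd83, which opposes that ligase, stood at 1031 and 826 CPM in mature dendritic cells and 200.5 and 126 CPM in cDC1. Of the endosomal enzymes, Ctsl stood at 2043 and 1940.1 CPM in pDC and 817 and 1078 CPM in macrophages, against 8.75 and 46.3 CPM in cDC1, and the cathepsin inhibitor gene Cst3 at 28631 and 30056 CPM in cDC1.

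Within monocytes and macrophages, class II RNA was highest in cells with 5 or 6 of the 8 macrophage markers. Cells with up to 4 of them make up the monocyte class, and cells with 5 or more the macrophage class. The macrophage gate also asked for C1qa, C1qb and C1qc, and the cDC2 gate left out cells with 5 or more macrophage markers. The step from 4 to 5 or 6 markers is thus also a step between gates, whose part was not tested. Cells with 0 to 2 of these markers had 8389.9 CPM of the 8 genes in the IRF4 arm and 10251 CPM in the control arm, and 20.2% and 28.3% of them had at least 10000 CPM. Cells with 3 had 8385 and 12636 CPM, with shares of 20.1% and 29.0%, so in the IRF4 arm they were level with the cells with fewer markers. Cells with 4 had 13228 and 16610.5 CPM, with shares of 39.4% and 44.0%. Cells with 5 or 6 had 27679 and 31347 CPM, with shares of 71.1% and 76.0%. Cells with 7 or 8 stood lower again, at 20038 and 16039.6 CPM, with shares of 60.4% and 50%. Ctss did not follow this order in either arm, at 2637 and 2227 CPM with 4 markers, 2455 and 1917 CPM with 5 or 6 and 2641 and 1935 CPM with 7 or 8. Deeper cells show more markers: the median depth was 11161 and 12339 UMIs with 0 to 2 markers and 17669 and 24448 UMIs with 7 or 8, and the part of depth in this order was not tested.

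Between arms, the endogenous cells as a whole held far less class II RNA in the IRF4 arm, and the make-up of the cells differed as well. The 8 genes summed to 8070.1 CPM over all kept endogenous cells of the IRF4 arm and 17498 CPM of the control arm, a ratio of 0.461 (0.460 to 0.463). All 8 were lower, with ratios from 0.438 for H2-Aa to 0.591 for Ctss, where 10.2% of the measured genes were lower and 8.14% higher. B cells made up 1.84% of kept cells in the IRF4 arm, against 8.40% in the control arm, macrophages 2.73% and 9.02%, cDC2 1.91% and 3.29%, and cDC1 0.832% and 1.73%. CD8 T cells made up 28.1% and 10.4%, and NK cells 16.4% and 9.62%. Shares of sorted cells depend on the sort, whose gates beyond CD45 the labels do not give. When the control arm's levels in each of the 16 classes, mixed and unassigned cells included, were weighted by the share of UMIs each class had in the IRF4 arm, the 8 genes came to 10179 CPM, 0.582 of the control arm's own level. With the class make-up held at that of the control arm instead, the IRF4 levels gave 15250.4 CPM, 0.872 of it. At the make-up of the IRF4 arm, the IRF4 levels were 0.793 of the control levels. These values depend on the gates and on 1 library per arm.

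**Figure D4:**
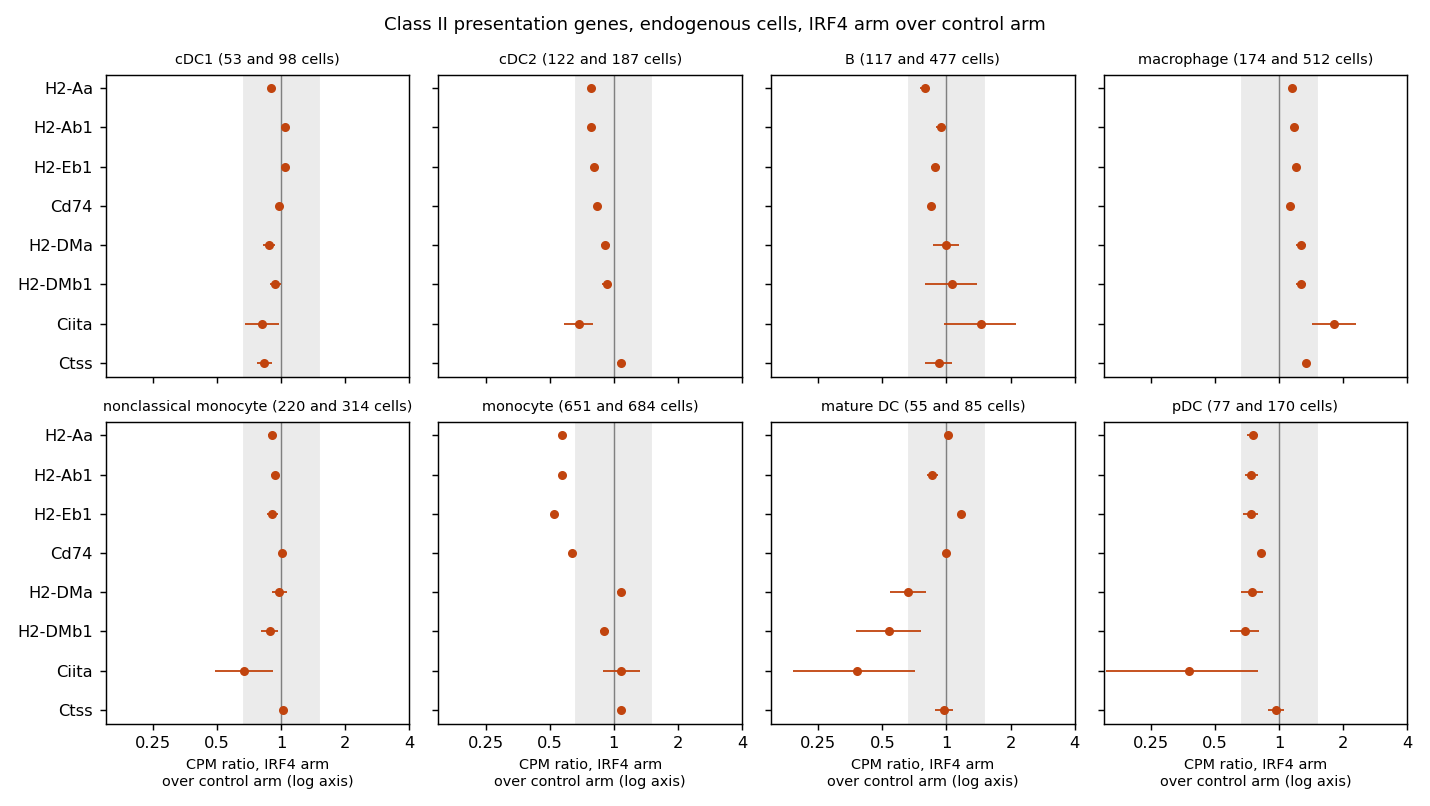
CPM ratios of IRF4 over control for each of the 8 genes in 8 endogenous classes (log axes), with exact 95% intervals for counting error only and the number of cells in the IRF4 and control arms above each panel. The grey band runs from 1/1.5 to 1.5. The 3 chains and Cd74 fall below it in monocytes, the DM genes and Ciita in mature dendritic cells and Ciita in pDC, and Ciita lies above it in macrophages.

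In the classes richest in class II RNA the arms stood close together. None of the 8 genes was higher or lower by 1.5-fold in cDC1, cDC2 or B cells. Of all measured genes, 4.93% were higher and 6.02% lower in cDC1, 5.31% and 6.66% in cDC2, and 15.2% and 11.7% in B cells. In cDC1 the ratios, IRF4 over control, ran from 0.817 for Ciita to 1.04 for H2-Ab1. In cDC2 they ran from 0.685 (0.584 to 0.800) for Ciita to 1.08 for Ctss, with the chains and Cd74 between 0.783 and 0.835, beside the lower 10th percentile of cells given above. In B cells Ciita had a ratio of 1.45 (0.972 to 2.13), and the chains and Cd74 ran from 0.791 to 0.941, beside the haemoglobin RNA of the control B cells. Nonclassical monocytes likewise had no member past 1.5-fold, where 2.6% of measured genes were higher and 4.43% lower.

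Other presentation genes of the same dendritic cells did differ. In cDC1 of the IRF4 arm 4 of 7 endosomal processing genes were lower, where 6.02% of all measured genes were, among them Lgmn, a legumain that trims antigen, at 33.6 against 111 CPM, ratio 0.302 (0.220 to 0.408), and Ctsl at 8.75 against 46.3 CPM, ratio 0.189 (0.0982 to 0.334). The macrophage list summed to 207 CPM in cDC1 of the IRF4 arm and 386 CPM in those of the control arm, with all 8 genes present in both, and its part in these values was not tested. Both measured costimulation genes were higher in cDC1, where 4.93% of all measured genes were. Cd86 had a ratio of 1.55 (1.34 to 1.78) and Cd40 of 2.77 (1.83 to 4.22). In cDC2 Ctsd was lower at ratio 0.504 (0.417 to 0.607), and Cd83 was higher at ratio 2.04 (1.76 to 2.36). In B cells 5 of 9 class I presentation genes were higher, where 15.2% of all measured genes were. Among them was Psmb9, an immunoproteasome subunit, at ratio 2.15 (1.77 to 2.6). The medians over these lists were -0.60 on the log2 scale for endosomal processing in cDC1 and 0.62 for class I presentation in B cells, where the median over all measured genes was 0.02 in cDC1 and 0.04 in B cells.

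In macrophages the chains and Cd74 leaned to the IRF4 arm and in monocytes to the control arm, a difference between the classes that was not tested. In macrophages, 174 cells in the IRF4 arm, against 512 in the control arm, all 8 genes had ratios above 1, from 1.12 for Cd74 to 1.82 (1.43 to 2.30) for Ciita. Only Ciita passed 1.5-fold, at 35.3 CPM in the IRF4 arm and 19.4 CPM in the control arm, where 5.65% of measured genes were higher and 6.89% lower. With classes taken from clusters no member was higher by 1.5-fold, and the log2 ratio of Ciita was 0.49. Within the macrophage gate the direction depended on the number of markers. Cells with 5 or 6 markers, 83 of 174 in the IRF4 arm and 154 of 512 in the control arm, held 11064 and 13256 CPM of Cd74 and 4421 and 5033 CPM of H2-Aa. Cells with 7 or 8 markers held 8059 and 6689 CPM of Cd74 and 2705 and 2299 CPM of H2-Aa. Irf1, an interferon-induced factor that acts on Ciita, was higher at ratio 2.70 (2.41 to 3.02), and 5 of 9 class I presentation genes were higher, among them the class I transactivator Nlrc5 at ratio 1.77 (1.35 to 2.29).

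In monocytes, 651 and 684 cells, H2-Aa, H2-Ab1, H2-Eb1 and Cd74 were lower with IRF4 and the other 4 members were within 1.5-fold. H2-Aa stood at 1005 CPM in the IRF4 arm and 1759 CPM in the control arm, ratio 0.571 (0.556 to 0.587). H2-Ab1 had a ratio of 0.571 (0.556 to 0.587), H2-Eb1 of 0.522 (0.506 to 0.539) and Cd74 of 0.635 (0.625 to 0.644). H2-DMa had a ratio of 1.08, H2-DMb1 of 0.904, Ciita of 1.09 and Ctss of 1.09. Of all measured genes 4.9% were lower and 5.27% higher. Summed over the 8 genes, 23.3% and 33.2% of monocytes of the IRF4 and control arms had at least 10000 CPM. The 10th percentiles of that sum were 1841 and 1650.2 CPM. Ctss made up 23.5% and 15.1% of the sum in the pooled class, so its low end need not reflect the chains. How the chains and Cd74 alone were spread over the cells was not tested. Among the other lists, Irf1 was higher at ratio 2.24 (2.09 to 2.40) and Cd40 at ratio 2.5 (2.17 to 2.89), and the lysosomal genes Ctsl, Ctsd and Lgmn were lower at ratios of 0.349, 0.435 and 0.578. The monocyte call rests on the gate: with classes taken from clusters none of the 8 was lower by 1.5-fold, and the log2 ratio of H2-Aa was -0.51 in place of -0.81. The clusters hold partly other cells. The monocyte gate was passed by 45.7%, 40.2% and 61.3% of cells in the clusters taken as monocytes. For the cluster taken as macrophages, the share passing the macrophage gate was 29.8%. Taken over monocytes and macrophages with neither the interferon nor the hypoxic list, 4 of 8 genes were lower, with a Cd74 ratio of 0.657 (0.650 to 0.665), where 8.45% of measured genes were lower and 8.17% higher. In cells with the interferon list, H2-Aa and H2-Eb1 were lower, at ratios of 0.632 and 0.663, where 15.4% of measured genes were lower and 7.21% higher. None of the 7 measured members was past 1.5-fold in cells with the hypoxic list, where 12.2% of measured genes were higher and 12.5% lower. The groups made with these lists pool both classes, whose mix differed between arms. There were 174 and 512 macrophages beside the 651 and 684 monocytes of the IRF4 and control arms. The part of that mix in the ratios of these groups was not tested.

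Mature dendritic cells and pDC had fewer Ciita UMIs in the IRF4 arm. In mature dendritic cells, 55 and 85 cells, Ciita stood at 14.3 CPM in the IRF4 arm and 37.3 CPM in the control arm, ratio 0.382 (0.191 to 0.709), H2-DMa at ratio 0.661 (0.541 to 0.803) and H2-DMb1 at ratio 0.537 (0.374 to 0.758). The chains and Cd74 were within 1.5-fold, from 0.858 for H2-Ab1 to 1.18 for H2-Eb1. Of all measured genes 15.7% were lower there and 7.71% higher. With classes taken from clusters only Ciita was lower by 1.5-fold. RNA of other cell types also differed between these cells: the macrophage list summed to 409 CPM in the IRF4 arm and 1083 CPM in the control arm with all 8 genes present in both, the monocyte list to 226 and 885 CPM with 6 and 8 of 8 present, the cDC1 list to 52.7 and 126 CPM, with Xcr1 at 0 in the IRF4 arm, and the erythroid list to 1.10 and 3459 CPM. Their part in the result was not tested. In pDC, 77 and 170 cells, Ciita stood at 9.50 CPM in the IRF4 arm and 25.2 CPM in the control arm, ratio 0.376 (0.154 to 0.799), and the other 7 members had ratios from 0.690 to 0.967, where 8.49% of measured genes were lower and 6.04% higher. The pDC value rests on 8 UMIs in the IRF4 arm, against 51 in the control arm, and with classes from clusters its log2 ratio was 0.21 in place of -1.32.

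The transferred Pmel-1 CD8 T cells carried Cd74, H2-DMa and Ctss but little of the rest. In CD8 T cells of the transferred libraries, 459 in the IRF4 arm, against 1847 in the control arm, Cd74 stood at 179 CPM in the IRF4 arm and 285 CPM in the control arm, Ctss at 82.1 and 111 CPM and H2-DMa at 38.3 and 37.5 CPM. H2-Aa stood at 26.9 and 27.7 CPM and H2-DMb1 at 3.22 and 3.34 CPM. Ciita had 1 UMI with IRF4 and 21 with GFP alone, ratio 0.190 (0.00459 to 1.18). Cd74 UMIs per chain UMI were 2.12 and 3.01, against 0.92 and 0.963 in endogenous macrophages of the same arms. The ratio was 1.49 and 1.36 in endogenous nonclassical monocytes, and 1.04 and 1.26 in cells of the transferred libraries with markers of more than 1 lineage. The fewest cells that held 50% of all H2-Aa UMIs were 2 and 6, while for Cd74 they were 21 and 139.

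Transferred cells without a UMI of the macrophage markers held less chain RNA per UMI, and still held Cd74 and H2-DMa. In transferred CD8 T cells with none of the 8 macrophage markers, H2-Aa stood at 6.69 CPM in the IRF4 arm and 13.8 CPM in the control arm, Cd74 stood at 131 and 249 CPM, and H2-DMa at 39.2 and 37.6 CPM. These cells still held some phagocyte RNA, with Lyz2 at 6.85 and 9.54 CPM, and in the IRF4 arm had a median depth of 13274 UMIs, against 23827 in cells with a marker. Cells of the transferred libraries with T cell and phagocyte lists together held 797 and 374 CPM of H2-Aa and 2506 and 1372 CPM of Cd74, and were set aside. With each cell thinned to 2000 UMIs, a Cd74 UMI was seen in 19.6% (16.1 to 23.5) and 24.9% (23.0 to 27.0) of transferred CD8 T cells of the IRF4 and control arms, or in 51.2% and 59.3% without thinning. As a background from cells outside the transferred sort, the thinned share was 10.0% (2.11 to 26.5) and 8.57% (1.80 to 23.1) in mast cells or basophils, 11.8% (9.91 to 13.9) and 19.0% (15.8 to 22.6) in NK cells, and 7.37% (6.2 to 8.67) and 16.0% (13.1 to 19.2) in endogenous CD8 T cells of the IRF4 and control arms. Median depth was 15506 and 18643 UMIs in transferred CD8 T cells and 3824 and 4327 UMIs in mast cells or basophils. The transferred libraries held no class of 50 or more cells other than CD8 T cells in which their free RNA could be read.

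Of the 6 members measured in transferred CD8 T cells, only Cd74 differed by 1.5-fold, lower in the IRF4 arm at ratio 0.630 (0.602 to 0.659), where 2.46% of measured genes were lower and 3.42% higher. Ctss had a ratio of 0.739 (0.690 to 0.791), H2-DMa of 1.02 (0.92 to 1.13) and H2-Aa of 0.973 (0.860 to 1.10). The Cd74 value stayed below 0 on the log2 scale in every alternative run, between -0.93 and -0.44, but was within 1.5-fold as a mean over cells or after thinning, and without cells that hold a macrophage marker 4 members were lower. Clusters of these cells differed in Cd74 as well. Cd74 stood at 226 and 396 CPM in cluster 2 (led by Hbb-bs, Ikzf2 and Mxd4), the largest, with a ratio of 0.569 (0.517 to 0.625), and at 139 and 214 CPM in cluster 8 (led by Hmmr, Nusap1 and Tpx2), with a ratio of 0.646 (0.601 to 0.695). Hbb-bs is 1 of the erythroid genes, which summed to 0.330 and 90.1 CPM in transferred CD8 T cells of the IRF4 and control arms. The part of haemoglobin RNA in cluster 2 was not tested. In cluster 3 (led by Ccl4, Il2 and Ifng) the order was the other way, at 194 CPM in the IRF4 arm and 114 CPM in the control arm, ratio 1.70 (1.47 to 1.97), and H2-DMa there had a ratio of 2.08 (1.45 to 2.92). The chains of cluster 3 went the same way, at ratios of 2.30 (1.47 to 3.53) for H2-Aa, 1.98 for H2-Ab1 and 1.58 (0.930 to 2.56) for H2-Eb1. Ctss there had a ratio of 1.12. Cluster 4 (led by Klra7, Ccr2 and Gzma) held the least Cd74, at 34.5 and 26.9 CPM. H2-Aa stood there at 43.9 and 3.42 CPM, on 14 and 8 UMIs. In clusters 5 and 6 (led by granzyme genes) the Cd74 ratios were 0.344 (0.269 to 0.438) and 0.0940 (0.0677 to 0.128), over 37 control cells each, and H2-Aa stood beside them at 100.1 and 144 CPM in the control cells. Transcripts of the other lists that differed were Rfx5, a subunit of the X box complex, at ratio 0.566 (0.448 to 0.707), H2-Oa at 0.467 (0.379 to 0.570), Ctsl at 0.427 (0.330 to 0.547), all lower, and Prdm1, which encodes the Ciita repressor Blimp-1, higher at 17.9 against 2.47 CPM, ratio 7.27 (5.78 to 9.17).

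**Figure D5:**
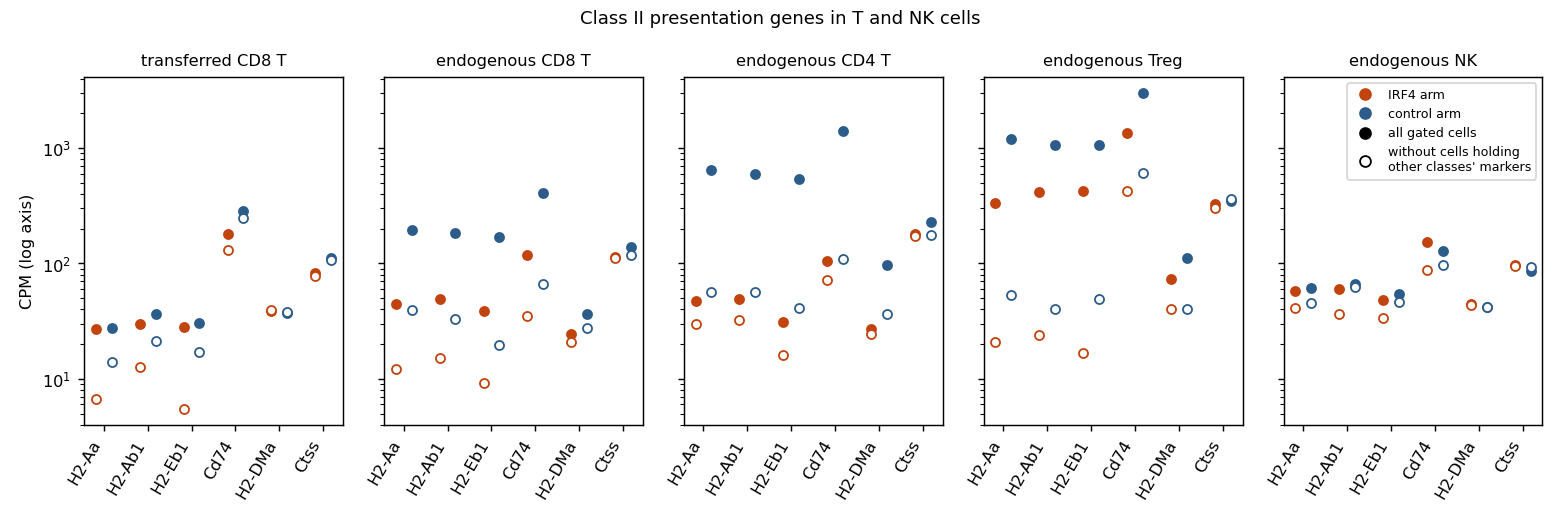
CPM of 6 of the genes in T and NK cells (log axis), the IRF4 arm left of the control arm at each gene. Filled points use all gated cells, and open points leave out cells with a macrophage marker or at least 2 markers of the cDC1, cDC2 or B list. When those cells are left out, the chains and Cd74 of endogenous T cells are several-fold lower in the control arm, and they are lower in the IRF4 arm too. The chains of transferred CD8 T cells are also lower in both arms, while their Ctss and H2-DMa hardly move. Ctss of endogenous CD8 T cells also moves little.

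Pooled endogenous T cells of the IRF4 arm held several times less class II RNA than those of the control arm, where a few cells held most of it, and the difference shrank in several alternatives. In CD4 T cells 7 of 8 members were lower in the IRF4 arm, with ratios from 0.0465 (0.0147 to 0.113) for H2-DMb1 to 0.284 for H2-DMa, where 7.48% of measured genes were lower and 11.5% higher. With classes taken from clusters 1 member was lower there, and without cells that carry markers of other classes 4. Over the alternatives the log2 ratio of H2-Aa ran from -3.86 to -0.46 and that of Cd74 from -3.84 to -0.33. In the control arm 2 of 228 CD4 T cells held 50% of the H2-Aa UMIs. The median CD4 T cell had 281 CPM of the 8 genes in the IRF4 arm and 423 CPM in the control arm. Ctss is part of that sum, so the medians do not show the chains and Cd74 alone. Without cells that carry markers of other classes, Ctss stood at 175 and 177 CPM and H2-Aa at 29.9 and 56.3 CPM. In CD8 T cells 5 of 7 measured members were lower, with H2-Aa at ratio 0.227 (0.211 to 0.244) and Cd74 at 0.288 (0.275 to 0.302), where 4.27% of measured genes were lower and 2.46% higher. There 3 of 588 control cells held 50% of the H2-Aa UMIs, the median cell had 205 and 301 CPM, and how much of the difference remained depended on which cells were left out. With only the cells without a macrophage marker Cd74 stood at 64.3 and 66.2 CPM and 1 member was lower. Without cells that carry a macrophage marker or at least 2 markers of a dendritic or B list, Cd74 stood at 35.3 and 66.7 CPM, H2-Aa at 12.1 and 39.3 CPM and H2-Eb1 at 9.18 and 19.8 CPM, lower with IRF4 for all 3. Ctss, which is also part of the median values of CD8 T cells, stood at 113 and 118 CPM in the cells left. The macrophage list summed to 20.2 CPM in endogenous CD8 T cells of the IRF4 arm and 71.3 CPM in those of the control arm, with a UMI of all 8 genes in both. In CD4 T cells the list summed to 29.8 and 88.3 CPM, with 7 and 8 of its genes present. NK cells had no member past 1.5-fold, where 1.74% of measured genes were higher and 2.09% lower.

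Treg stood apart from the other T cells in Cd74. After thinning, a Cd74 UMI was seen in 50.9% (41.3 to 60.5) and 54.5% (40.6 to 68.0) of Treg of the IRF4 and control arms, and in 10.6% (7.39 to 14.5) and 20.3% (15.2 to 26.1) of other CD4 T cells. An H2-Aa UMI was seen in 9.82% (5.01 to 16.9) and 21.8% (11.8 to 35.0) of Treg. Without cells that carry markers of other classes, Treg held 425 and 603 CPM of Cd74, beside 20.8 and 53.2 CPM of H2-Aa, over 93 and 31 cells. Between arms 7 of 8 members were lower in all gated Treg of the IRF4 arm, 112 cells against 56, with Cd74 at ratio 0.451 (0.422 to 0.482), where 12.5% of measured genes were lower and 9.39% higher, and with classes taken from clusters 4 were lower. In the control arm 2 cells held 50% of the Cd74 UMIs, and in the IRF4 arm 2 cells.

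Transferred and endogenous CD8 T cells of the same tumours differed in which members they held. In the IRF4 arm transferred cells had more Cd74, at 179 against 118 CPM, ratio 1.52 (1.44 to 1.61), and more H2-DMa, ratio 1.58 (1.4 to 1.78), where 5.98% of measured genes were higher. H2-Aa and H2-Ab1 were lower, at ratios of 0.607 and 0.608, where 10.3% of measured genes were lower, but neither was lower without the highest doublet scores. In the control arm 4 of 7 measured members were lower in transferred cells, among them H2-Aa at ratio 0.142 (0.132 to 0.153), where 12.7% of measured genes were lower and 6.63% higher. Cd74 turned with the cells used. Over all gated cells of the control arm it stood at 285 CPM in transferred cells and 409 CPM in endogenous cells, ratio 0.697 (0.671 to 0.724). Without cells that hold a macrophage marker, transferred control cells had 249 CPM of Cd74 against 66.2 CPM in endogenous control cells, and 1 member was higher and 2 lower. The sort and the library go together in these comparisons and cannot be told apart.

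Across the 28 class and library profiles of the endogenous cells, the members were most like one another in the chains and Cd74. The Pearson correlation of log2(CPM + 1) with the mean of the other 7 members was 0.984 for H2-Ab1, 0.981 for Cd74, 0.970 for H2-Aa, 0.956 for H2-Eb1, 0.932 for Ciita, 0.883 for H2-DMb1, 0.880 for H2-DMa and 0.825 for Ctss. Among 6084 other genes, the 10 with the highest correlation with the members' mean were Plekho1 (0.952), Tifa, Fgd2, Ifi30, Pkib, Ly86, Pld4, Lacc1, Irf5 and Scpep1 (0.857). Ifi30 encodes the lysosomal thiol reductase that opens disulphide bonds of antigen, and stood at 2065 and 1974 CPM in cDC2 and 1726 and 1288 CPM in mature dendritic cells of the IRF4 and control arms. These profiles come from 2 libraries and 14 classes, share depth and free RNA within a library, and give a description only.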

How the data were processed

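Single-cell libraries were made with the 10x Genomics 3' kit, version 3, from sorted tumour-infiltrating cells, while another passage of the labels speaks of nuclei. The deposited matrices hold raw UMI counts per gene and barcode, made by the authors with Cell Ranger 3.0.2 and STAR 2.6 on mm10, per the submitters' processing notes. The gene annotation and the counting of introns are not given in the sources used here. Barcodes with at least 1000 UMIs, 500 genes and at most 10% mitochondrial UMIs were kept, 15132 of 17711.

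Cell classes were gated on the number of detected markers per list (3 to 5, of mostly 8), with limits set after the marker counts were seen and without the 8 members. The members, lists and motifs were chosen with earlier results of these data known. The named genes are the 8 members, the fixed pathway lists and the 10 genes most like the members. UMIs were summed per class and library and given as CPM. Each group has 1 library, so no test was made. Intervals are exact Poisson for levels, Clopper-Pearson for shares and conditional binomial for ratios. Depth per library was 16664323 to 94686409 UMIs. Classes under 50 cells in either arm were not compared. Shares were computed after thinning to 2000 UMIs. Scrublet called 11 of 15132 cells (0.0727%) doublets, which is too few to have worked, so none was removed. An alternative dropped the 6% with the highest scores. Between libraries 0 to 13 barcodes were shared. The calls were checked on simulated pools with far more UMIs than most classes hold, such as the 544931 in B cells of the IRF4 arm. That check does not cover the smaller classes. Further alternatives were a looser cell filter, size factors, means over cells, thinning, clusters (Leiden, resolution 1) and no CPM minimum, and 2 filters on T and NK cells chosen after seeing the data. Python 3.11.15 was used with numpy 2.4.6, scipy 1.17.1, pandas 2.3.3, scanpy 1.11.5, scikit-learn 1.9.0, igraph 0.11.9 and matplotlib 3.10.9. RefSeq promoters were read from a GRCm38.p6 table. Of the fixed lists, 1 gene is not reported here.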

Additional observations from a re-analysis of the deposited data

Results flagged for a closer look

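The IRF4 over control ratio of Ciita lay on opposite sides of 1 in different endogenous classes. It was 1.82 in macrophages, against 0.382 in mature dendritic cells, 0.376 in plasmacytoid dendritic cells, 0.133 in CD4 T cells and 0.227 in Treg. The CD4 T cell ratio rests on 3 Ciita UMIs in the IRF4 arm, against 18 in the control arm, and the Treg ratio on 7 against 15. Without cells that carry markers of other classes, 2 and 1 UMIs remained in CD4 T cells and 1 and 0 in Treg. Those are too few to compare. The difference between classes was not tested, since each arm has 1 library. With classes taken from clusters the log2 ratio of Ciita was 0.21 in both plasmacytoid dendritic cells and CD4 T cells, and the macrophage ratio was within 1.5-fold.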

How the results depend on the processing

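Of the counts of members called and the shares of cells under the alternatives, 198 stayed within 1.5-fold or their interval and 42 moved past it. Of the ratios of single members, 542 stayed in their interval and 316 moved out of it, some of which, not called before, crossed 0, and 7 called ratios changed sign. With classes from clusters, the lower members numbered 4 in transferred CD8 T cells (1 in the gated cells), 1 in mature dendritic cells (3), 0 in pDC (1), 0 in monocytes (4), 1 in CD4 T cells (7), 4 in Treg (7), 3 in NK cells (0) and 0 and 2 in transferred over endogenous cells of the IRF4 and control arms (2 and 4), and the higher members 1 in B cells (0), 0 in macrophages (1) and 1 in the control arm's transferred over endogenous cells (0). The log2 ratio of Ciita was then 0.21 in pDC and in CD4 T cells. As a mean over cells, the lower members numbered 0 in transferred CD8 T cells, 1 in cDC2, 1 in nonclassical monocytes, 2 in NK cells and 0 in the IRF4 arm's transferred over endogenous cells, with 1 higher in B cells. After thinning they numbered 0 in transferred CD8 T cells, 1 in cDC1, 2 in pDC, 2 in NK cells and 0 in the IRF4 arm's transferred over endogenous cells, where the log2 ratio of H2-Ab1 was 0.0044. Without the highest doublet scores there were 1 higher member in B cells, 1 lower in nonclassical monocytes and 0 lower in the IRF4 arm's transferred over endogenous cells, with log2 ratios of 0.38 for H2-Aa and 0.18 for H2-Ab1. With no CPM minimum 4 were lower in that last comparison. Without T and NK cells holding a macrophage marker, 4 were lower in transferred CD8 T cells and 1 in endogenous CD8 T cells, 1 was higher in NK cells, 1 was higher and 2 lower in the control arm's transferred over endogenous cells, and the log2 ratio of H2-DMb1 in endogenous CD8 T cells was 0.17. Leaving out cells with dendritic or B markers too, 4 were lower in transferred CD8 T cells, 4 in CD4 T cells, 1 in NK cells, 1 in the IRF4 arm's and 2 in the control arm's transferred over endogenous cells, with 1 higher there, and the log2 ratio of Ciita in CD4 T cells was 0.22. Both of these filters were chosen after seeing the data. Without thinning, 51.2% and 59.3% of transferred and 34.4% and 50.5% of endogenous CD8 T cells of the IRF4 and control arms had a Cd74 UMI. The cause of these changes was not tested. The looser cell filter and the size factors moved no count past 1.5-fold. Nonclassical monocytes under clusters, and Treg without cells holding other markers, had under 50 cells and gave no value. No paired analysis was possible because each group has 1 library, and for the same reason no replicate could be left out. Depth limits Ciita most, with 1 UMI in transferred IRF4 CD8 T cells.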

Other observations

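The class II RNA of the endogenous libraries was spread over several classes of cells. Of all UMIs of the 8 genes, cDC2 held 14.8% in the IRF4 arm and 15.9% of those in the control arm, cDC1 12.4% and 11.5%, monocytes 10.9% and 8.55%, and macrophages 10.54% and 17.2%. Cells with markers of more than 1 lineage, which were set aside, held 23.5% and 23.1%, and cells in no class 13.59% and 10.52%. Of the UMIs of all genes, cDC2 held 2.59% and 4.96%, cDC1 1.85% and 3.64%, monocytes 9.54% and 11.27%, and macrophages 3.70% and 15.37%. Cells with more than 1 lineage held 13.33% and 22.99% of these, and cells in no class 12.64% and 13.26%. In the control arm, macrophages and cells with more than 1 lineage were close to their share of all UMIs. Monocytes there were below it.

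Regulators of Ciita other than the interferon-gamma genes were also ordered by class. Irf8, a factor of dendritic and B cell development, stood at 3629 and 3131 CPM in pDC and 1980.5 and 2096 CPM in cDC1 of the IRF4 and control arms, and in mature dendritic cells it was higher in the IRF4 arm at ratio 1.96 (1.81 to 2.13). Cd83 stood at ratio 1.78 (1.56 to 2.02) in macrophages, and Cd40, the receptor through which CD4 T cells act on presenting cells, at ratio 2.18 (1.78 to 2.66).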
